A study of Chrysanthemum x morifolium with 4 samples.

Results

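Sudden freezing and chilling, the treatments that chrysanthemum leaves met singly in this series, were compared directly, with no control library in the ratio. Leaves frozen at -4 °C for 4 h without earlier acclimation (suddenly frozen) were set against leaves held at 4 °C for 24 h (chilled, or acclimated). The frozen library, and higher or lower in frozen leaves, refer below to the suddenly frozen leaves unless earlier chilling is named. The plants were 20-day-old seedlings of the cultivar Jinba (Chrysanthemum x morifolium), which had been propagated in tissue culture and then potted. The untreated control and leaves held at 4 °C for 24 h and then frozen at -4 °C for 4 h served to place the differences. Each of the 4 treatments has 1 library, in which leaves of 3 replicates were mixed, so plant-to-plant variation is unknown and no p-value is given for single unigenes. The treatments differ in temperature and in length, and the parts these play cannot be told apart.

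All unigenes with 10 or more counts summed over the 4 libraries were compared, 48004 (51.2%) of the 93837 listed. A unigene is a transcript pieced together from the reads, and the table names each by an assembly identifier only. No gene name, sequence or chromosome position was used here, so the lists of cold and freezing genes drawn up for the work could not be applied, and the leaf label could not be checked against marker genes. The unigenes left out held 0.318% of all counts. The acclimated library held 15179341 counts and the frozen library 14345704, within the range of 14024558 to 15781435 over all 4. The libraries were scaled by trimmed mean of M-values (TMM), which sets a factor for each library from a trimmed mean of log ratios. It takes most unigenes as unchanged between libraries.

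In plants, low temperatures above freezing start a slow programme known as cold acclimation, in which CBF transcription factors switch on protective genes and sugars, membrane lipids and protective proteins change. Ice forming outside the cells at temperatures below freezing draws water out of them, and leaves meet dehydration and membrane damage within a short time. Whether a transcript differs between the long mild cold and the short severe cold is the question that the direct ratio addresses. A like response to both leaves the ratio near equal levels and can be seen only against the control.

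The frozen and the acclimated leaves differed broadly, in both directions. Called higher in frozen than in acclimated leaves were 3421 unigenes, 7.13% of those compared, and 2835 were called lower, or 5.91%, together 13.0%. A unigene was called where the whole 95% counting interval of its ratio lay beyond 2-fold. Fewer cells of a type and less RNA per cell cannot be told apart in such bulk samples. Higher calls made up 54.7% of all calls (exact binomial interval over unigenes 53.4 to 55.9%). Scaling by total counts moved log2 ratios by a median of 0.19 and gave 4387 higher and 2179 lower calls, 66.8% higher. Among large differences the lean to the frozen side was stronger: 405 unigenes (0.844%) were higher and 189 (0.394%) lower with an interval wholly beyond 8-fold, 68.2% higher (64.3 to 71.9%). Beyond 4-fold 1024 (2.13%) were higher and 680 (1.42%) lower, and intervals that only excluded equal levels gave 12214 (25.4%) and 10793 (22.5%).

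**Figure D1:**
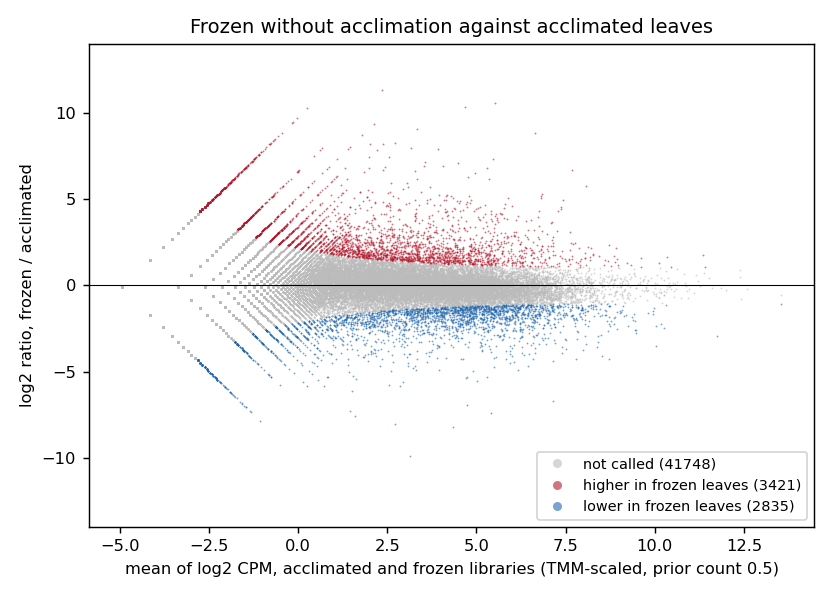
Each point is a unigene, with its mean log2 CPM (counts scaled to library size, by TMM) in the acclimated and frozen libraries on the horizontal axis and the log2 ratio of frozen to acclimated on the vertical axis. Red points are the 3421 called higher and blue points the 2835 called lower, and the stripes at the left are unigenes with a handful of counts.

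Called differences had a larger median on the frozen side, but the called sets differed in abundance. Fewer counts require a larger ratio for a call, and the part this plays in the medians was not tested. Higher unigenes had a median log2 ratio of 2.76 (quartiles 1.91 and 4.29), or 2.31 with a count of 0 set to the limit of 3 counts. Lower unigenes had a median of -2.10 (quartiles -3.004 and -1.59), or -2.00 with zeros at the limit. Those higher in frozen leaves were scarce after chilling, with a median of 1.02 FPKM (counts scaled to unigene length and library total) there and 8.18 FPKM after freezing. The lower ones were plentiful after chilling, at a median of 19.1 FPKM, and stood at 5.21 FPKM after freezing. Both sets were called on these same libraries, so the direction of each difference follows from the call rule. Over all unigenes compared the median log2 ratio was 0.10, with quartiles of -0.66 and 0.99, and over the 23772 with at least 100 counts it was 0.01.

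The called sets held sizeable shares of the counted transcripts. The 2835 unigenes lower in frozen leaves held 25.6% of counts in the acclimated library and 7.91% in the frozen library. They held 12.2% in the control and 20.3% in leaves acclimated and then frozen. The 3421 unigenes higher in frozen leaves held 15.8% of counts in the frozen library and 3.18% in the acclimated library, against 8.30% in the control and 10.9% in leaves acclimated and then frozen. With total counts as the scale the called sets held 20.2% (lower, acclimated library) and 19.9% (higher, frozen library), so the gap between 25.6% and 15.8% depended on scaling. Exact binomial intervals of these shares are under 0.03 percentage points to each side. In the library where each set stood high, its top 10 unigenes held 17.0% (higher set) and 17.4% (lower set) of its counts. Of the higher set 117 unigenes held 50% of the frozen counts, and of the lower set 138 held 50% of the acclimated counts. In the control the lower set leaned on c106657.graph_c1, which had 583366 of its 1919461 counts there and was not called by total counts.

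The direction depended on abundance. Of the 16406 unigenes under a mean of 1 FPKM over the 4 libraries, 567 were called higher in frozen leaves and 330 lower. At 1 to 10 FPKM the counts were 1708 and 1011. The balance turned at 10 to 100 FPKM, with 1036 higher and 1282 lower, and at 100 FPKM or more 110 were higher and 212 lower of 1019. Higher calls thus made up 63.2%, 62.8%, 44.7% and 34.2% of calls from the scarce to the abundant class. With total counts as the scale the shares were 76.3%, 73.6%, 57.04% and 43.7%, so the order of the classes kept its direction but the class of 10 to 100 FPKM leaned to the frozen side. Low counts leave room only for large differences in the scarce class, where the median unigene had 16 counts over 4 libraries against 13193 in the abundant class.

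**Figure D2:**
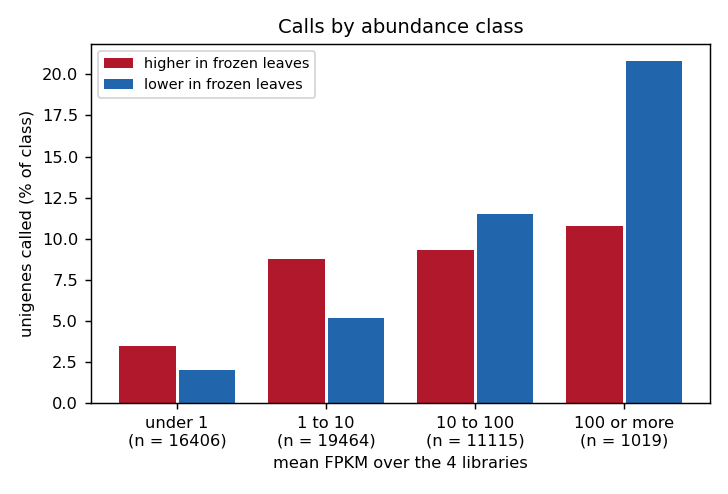
Bars give the percentage of unigenes in each class of mean FPKM (horizontal axis) that were called higher (red) or lower (blue) in frozen than in acclimated leaves. In the class of 100 FPKM or more 10.8% were higher and 20.8% lower, while under 1 FPKM 3.46% were higher and 2.01% lower.

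Unigene length, implied by count and FPKM, moved with abundance and with the direction of calls. Of calls among unigenes of 300 to below 500 bases 58.8% were higher, and among those of 2000 bases or more 46.0%. Within unigenes of 100 to below 1000 counts no such slope was seen, with 57.6% higher at 300 to below 500 bases and 59.2% at 2000 bases or more.

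The most abundant transcripts were largely common to chilled and frozen leaves. The 100 unigenes with the highest FPKM in each library shared 75. Of the 100 leading the acclimated library, 21 were called lower and 3 higher in frozen leaves, and of the 100 leading the frozen library, 15 were called higher and 2 lower. By FPKM, unigene c96009.graph_c0 led both libraries. It had 26170.2 FPKM in the control, 19482 FPKM in chilled leaves, 18421 FPKM in chilled and then frozen leaves and 14932 FPKM in suddenly frozen leaves. Unigene c106657.graph_c1, second in both, stood at 35513, 16481, 13403 and 8731 FPKM in the same order, a log2 ratio of frozen to acclimated of -1.10 (95% interval -1.11 to -1.09), or -0.92 by total counts, where it was no longer called. All 3 cold-treated libraries were below the control for both of these unigenes, and freezing alone was the lowest. Unigene c81650.graph_c0, the third in each list, took another course: it had 75014 counts in the control, 66641 in chilled leaves, 26162 in chilled and then frozen leaves and 100051 in suddenly frozen leaves. It stood lowest where freezing followed acclimation and highest where it did not.

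Close agreement could be shown for fewer transcripts, as unigenes with few counts have intervals too wide for the rule used. The number also depends on scaling, since total counts moved log2 ratios by a median of 0.19, and it is given by TMM only. The whole interval of the log2 ratio lay within 0.32 of 0 for 1610 unigenes (3.35%), and for 239 (23.5%) of the 1019 with a mean of 100 FPKM or more. The most abundant of these, c106367.graph_c1, had 3668 FPKM in chilled and 3767 FPKM in suddenly frozen leaves, but 7015 FPKM in the control. Unigene c93801.graph_c0 stood at 4735 FPKM in the control, 3904 FPKM in chilled leaves, 2822 FPKM in chilled and then frozen leaves and 4681 FPKM in suddenly frozen leaves. Equal levels in chilled and frozen leaves therefore did not always mean the level of untreated leaves. Unigene c114267.graph_c0 stood at 2544, 2824, 2980 and 2734 FPKM from control to freezing alone. FPKM values are not scaled by TMM. On the TMM scale its levels were 5907, 6669, 7398 and 5671 CPM in the same order, lowest after freezing alone.

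A difference between frozen and chilled leaves can lie on either side, so the untreated control and the leaves acclimated and then frozen were used to place it. Neither library enters the ratio, although both enter the filter on summed counts and the scaling. Choosing unigenes by a wide ratio favours outward deviations of the compared libraries, which by itself draws the placed libraries between them. For each unigene the control and the acclimated and frozen library were assigned to whichever of the acclimated and frozen libraries was nearer on the log scale. This gives 4 patterns. In the freezing pattern the control lies with chilled leaves and the acclimated and frozen library with suddenly frozen leaves, so that both frozen libraries stand apart from both unfrozen ones. In the acclimation pattern the control lies with suddenly frozen leaves and the acclimated and frozen library with chilled leaves, so that both acclimated libraries stand apart. In the remaining patterns either the suddenly frozen or the acclimated library stands apart from all others, and with 1 library a treatment this cannot be told apart from a deviation of that library.

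Unigenes higher in frozen than in chilled leaves fell into the freezing and the acclimation pattern in similar numbers. Of the 3421, 1279 (37.4%) had the freezing pattern and 1164 (34.0%) the acclimation pattern. The acclimated library stood apart for 635 (18.6%) and the suddenly frozen library for 343 (10.03%). Among the 22082 unigenes that were higher but not called, the shares were 19.2%, 42.5%, 19.3% and 19.0% in the same order. The order of the leading patterns turned with scaling: by total counts 33.3% had the freezing pattern and 38.7% the acclimation pattern. Many placements are not resolved by the counts, most of all among uncalled unigenes. Poisson 95% intervals on 1 side of the midpoint, a rule chosen after seeing the data, were met by 1936 of the 3421 and 6034 of the 22082. Among these the freezing pattern held 42.7% of called and 17.8% of uncalled unigenes, and the acclimation pattern 36.3% and 58.4%.

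Unigenes lower in frozen than in chilled leaves were mostly of the acclimation pattern. Of the 2835, 1971 (69.5%) were high in both acclimated libraries and low in the control and the suddenly frozen one, against 34.7% of the 19666 lower unigenes that were not called. The acclimated library stood apart for 388 (13.7%), the suddenly frozen library for 327 (11.5%), and 149 (5.26%) had the freezing pattern. Counts resolved the placement of 1875 of the 2835 and of 5397 of the 19666. Among these the acclimation pattern held 81.7% of called and 49.8% of uncalled unigenes. On a scale where 0 is the log level in chilled leaves and 1 that in suddenly frozen leaves, the control stood at a median of 0.94 (quartiles 0.66 and 1.16) for the lower unigenes. Leaves acclimated and then frozen stood at 0.20 (0.03 and 0.42). For the higher unigenes the control stood at 0.54 (-0.01 and 0.95) and the acclimated and frozen library at 0.60 (0.15 and 1.00), spread over the whole range.

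The larger the difference, the more the higher unigenes were of the freezing pattern. Its share was 29.7% where the interval bound nearest to equal levels lay between 2-fold and 4-fold, 45.4% between 4-fold and 8-fold and 70.4% beyond 8-fold. Over the same steps the acclimation pattern went from 40.05% to 27.3% and 8.64%. Among the lower unigenes the acclimation pattern held 68.3%, 72.3% and 76.7%, and the freezing pattern 5.71%, 3.87% and 3.70%. Beyond 8-fold, the freezing pattern held 285 of 405 higher and 7 of 189 lower unigenes, while the acclimation pattern held 35 and 145. With total counts these were 322 of 465 and 5 of 150, and 51 and 116.

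**Figure D3:**
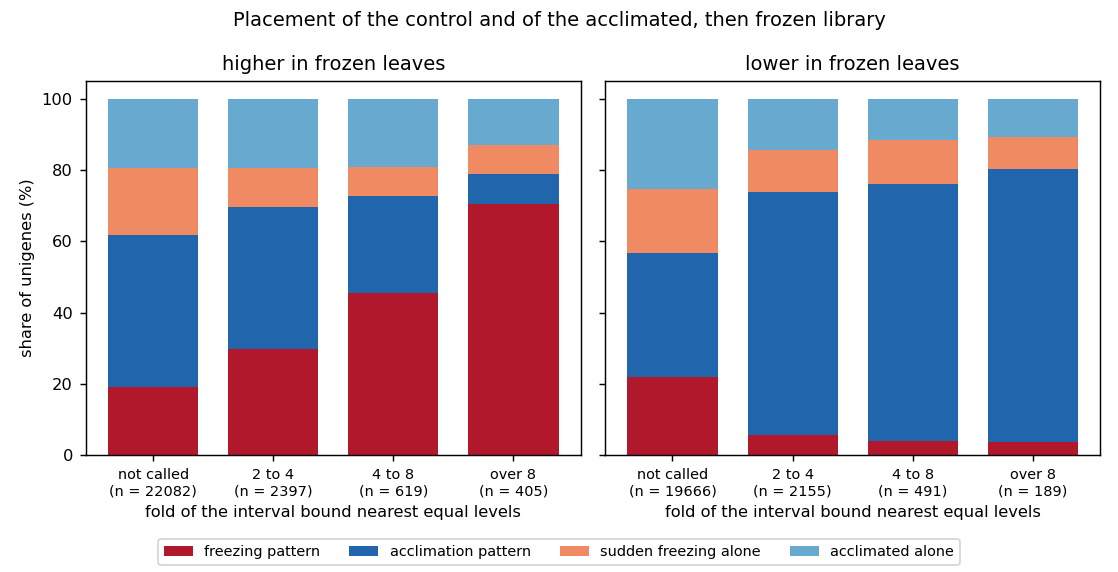
Stacked bars give the share of unigenes in each placement pattern (vertical axis, percent) for unigenes not called and for called ones by the fold of the interval bound nearest to equal levels. The left panel shows unigenes higher in frozen leaves, where the freezing pattern goes from 29.7% to 70.4% of calls, and the right panel those lower, where the acclimation pattern leads in every class.

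Which libraries lie together in a pattern is set by the placement rule, so the levels in the 4 libraries only describe how high each group stood. The 1279 higher unigenes of the freezing pattern were scarce without freezing, with medians of 0.664 FPKM in the control and 0.819 FPKM in chilled leaves. They reached 9.08 FPKM in chilled and then frozen leaves and 9.54 FPKM in suddenly frozen leaves. Their share of counts was 0.734%, 0.885%, 7.78% and 7.14% in that order. The 1164 of the acclimation pattern were expressed in untreated leaves, with medians of 8.04 FPKM in the control and 8.53 FPKM in suddenly frozen leaves, against 1.73 FPKM in chilled and 1.80 FPKM in chilled and then frozen leaves. For these unigenes the medians in suddenly frozen and untreated leaves were close, and both acclimated libraries were low. The 1971 lower unigenes of the acclimation pattern had medians of 6.24, 25.4, 21.1 and 7.49 FPKM from control to freezing alone, and held 4.74%, 18.8%, 16.3% and 5.61% of counts.

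Unigenes of the freezing pattern gave the widest differences on the frozen side. The 8 with the interval bound farthest from equal levels all had this pattern. Unigene c113393.graph_c0 had 36 counts in the control, 17 in chilled leaves, 21812 in chilled and then frozen leaves and 28482 in suddenly frozen leaves, a log2 ratio of frozen to acclimated of 10.56 (95% interval 9.93 to 11.38). Its level after freezing alone was 1194 FPKM. Unigene c113882.graph_c0 went with it, at 11, 10, 13962 and 14695 counts (log2 ratio 10.34, interval 9.54 to 11.48). In both unigenes the frozen libraries held 13962 counts or more and the unfrozen ones 36 at most. The most abundant of the 8 was c114356.graph_c0, with 0.635 FPKM in the control, 5.69 FPKM in chilled leaves, 2068 FPKM in chilled and then frozen leaves and 2957 FPKM in suddenly frozen leaves. Both frozen libraries held it above 2000 FPKM and both unfrozen libraries below 6 FPKM.

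Others of the 8 were unequal between the frozen libraries. Unigene c108642.graph_c0 had 2 counts in the control, 1 in chilled leaves, 607 in chilled and then frozen leaves and 4086 in suddenly frozen leaves, a log2 ratio of 11.31 (9.41 to 17.19). Unigene c98901.graph_c1 was similar in shape, at 3, 2, 537 and 1794 counts. Both were higher where freezing was sudden. Unigene c109532.graph_c0 had 3, 6, 5656 and 3710 counts, and c94818.graph_c0 had 3, 14, 4273 and 3766, so that these were somewhat lower where freezing was sudden.

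Transcripts detected in frozen leaves and not in chilled leaves outnumbered the reverse. Of all 48004 unigenes compared, 2578 had no count in the acclimated library and 1244 had none in the frozen library, before any scaling. At least 10 counts in the frozen library and none in the acclimated library were found for 634 of the 48004, and the reverse for 186. At 100 counts or more the numbers were 23 and 1. The unigene with the most counts was c78384.graph_c0, at 3 counts in the control, 0 in chilled leaves, 61 in chilled and then frozen leaves and 668 in suddenly frozen leaves, with a log2 ratio of 7.39 as the lower end of its 95% interval. Unigenes c91567.graph_c0 (449 counts) and c47062.graph_c0 (389 counts) had none in the control either, and 34 and 28 counts in chilled and then frozen leaves. All 3 were therefore present in both frozen libraries and far higher in the suddenly frozen one. In the other direction c94055.graph_c0 had 107 counts in chilled leaves, 1 in chilled and then frozen leaves and 0 in the control and in suddenly frozen leaves, with a log2 ratio of -4.94 as the upper end of its interval. Next came c99363.graph_c0, with 4, 76, 55 and 0 counts from control to freezing alone.

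On the chilled side the 8 widest differences all had the acclimation pattern. Unigene c94999.graph_c0 was nearly absent from the control (1 count) and from suddenly frozen leaves (4 counts), and had 3994 counts in chilled leaves and 7763 in chilled and then frozen leaves, a log2 ratio of frozen to acclimated of -9.90 (-11.95 to -8.71). Unigene c92070.graph_c0 followed the same course, at 7, 1601, 2720 and 6 counts (log2 ratio -8.05, -9.61 to -7.04). For these the acclimated libraries stood high, the frozen one above the unfrozen one, and suddenly frozen leaves and the control held 7 counts or fewer. Unigenes c105536.graph_c2 and c105536.graph_c3, which belong to the same assembly component and may share reads, had 56, 5192, 2273 and 18 counts and 95, 8113, 3431 and 52 counts. Here sudden freezing stood below the control. The longest of the 8, c114488.graph_c0 (3487 bases), had 259 counts in the control, 21575 in chilled leaves, 13272 in chilled and then frozen leaves and 221 in suddenly frozen leaves, or 408 FPKM in chilled and 4.42 FPKM in suddenly frozen leaves. Unigenes c109877.graph_c0, c103012.graph_c0 and c112231.graph_c0 had 4428, 618 and 502 counts in chilled leaves against 38, 3 and 3 in suddenly frozen ones.

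Among the leading transcripts of chilled leaves, c88048.graph_c0 was the most abundant that was called with the acclimation pattern. It stood at 1104 FPKM in the control, 4332 FPKM in chilled leaves, 3187 FPKM in chilled and then frozen leaves and 898 FPKM in suddenly frozen leaves, a log2 ratio of -2.46 (-2.49 to -2.42). It was highest in chilled leaves, next in chilled and then frozen leaves, and lowest in suddenly frozen leaves.

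On the frozen side the leading unigenes of the acclimation pattern had smaller ratios and were well expressed in untreated leaves. Unigene c87785.graph_c0 had 2723 counts in the control, 150 in chilled leaves, 250 in chilled and then frozen leaves and 5404 in suddenly frozen leaves (log2 ratio 5.06, interval 4.83 to 5.31). Both acclimated libraries were far below the control, and sudden freezing was above it. Unigene c96125.graph_c0 had 2750, 79, 81 and 2323 counts (4.76, 4.45 to 5.11), and c95368.graph_c0 had 823, 17, 37 and 644 (5.10, 4.45 to 5.93). In these the level after sudden freezing was close to the control.

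Transcripts that stood apart in suddenly frozen leaves were fewer. Higher there than in the 3 other libraries was c101660.graph_c0, with 30 counts in the control, 15 in chilled leaves, 103 in chilled and then frozen leaves and 1997 in suddenly frozen leaves (log2 ratio 6.90, 6.23 to 7.79). Unigene c75300.graph_c0 showed it most plainly, at 4, 3, 3 and 310 counts. Unigene c107067.graph_c0 was graded instead, at 4, 48, 191 and 1876 counts. Lower there than elsewhere was c115732.graph_c0, with 1436, 2507, 2748 and 85 counts (-4.98, -5.32 to -4.68). Unigenes c100979.graph_c0 (37, 73, 47 and 0 counts) and c102619.graph_c0 (84, 134, 35 and 2 counts) had the same placement at lower depth. The 327 lower unigenes of this kind made up 25.5% of lower calls under 1 FPKM, 11.4% at 1 to 10 FPKM, 7.49% at 10 to 100 FPKM and 15.1% (32 of 212) at 100 FPKM or more. They held 6.18% of counts in the control, 3.72% in chilled leaves, 2.96% in chilled and then frozen leaves and 1.50% in suddenly frozen leaves. Much of this came from c106657.graph_c1 alone, with 583366 of their 975779 counts in the control and 260406 of 565211 in chilled leaves. It gave 195663 of 414672 in chilled and then frozen leaves and 130378 of 215806 in suddenly frozen leaves. That unigene was highest in the control and was not called by total counts, so these shares do not describe the set at large.

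Where chilled leaves stood apart, the placement rule itself puts the control and the chilled and then frozen leaves on the side of suddenly frozen leaves. Unigene c100903.graph_c0 had 771 counts in the control, 2 in chilled leaves, 233 in chilled and then frozen leaves and 646 in suddenly frozen leaves (log2 ratio 7.91, 6.37 to 11.28). Unigene c115556.graph_c0 had 1187, 47, 1889 and 4737 counts (6.53, 6.14 to 6.996), and c101437.graph_c0 had 302, 1, 168 and 376. In the opposite direction c112305.graph_c0 had 12, 1258, 3 and 45 counts (-4.90, -5.37 to -4.48) and c91864.graph_c0 had 29, 227, 13 and 7. These were high in chilled leaves and low in all others.

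The freezing pattern in the lower direction was rare and held a few well-counted unigenes. Unigene c88970.graph_c0 had 309 counts in the control, 112 in chilled leaves, 6 in chilled and then frozen leaves and 2 in suddenly frozen leaves (-5.60, -8.98 to -4.03). Unigene c104396.graph_c0 had 249, 373, 28 and 15 counts (-4.70, -5.59 to -4.00). Both frozen libraries were low in each. Unigene c114222.graph_c1, at 190, 518, 124.8 and 60.5 FPKM from control to freezing alone, was lowest in the frozen libraries but also higher in chilled leaves than in the control.

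**Figure D4:**
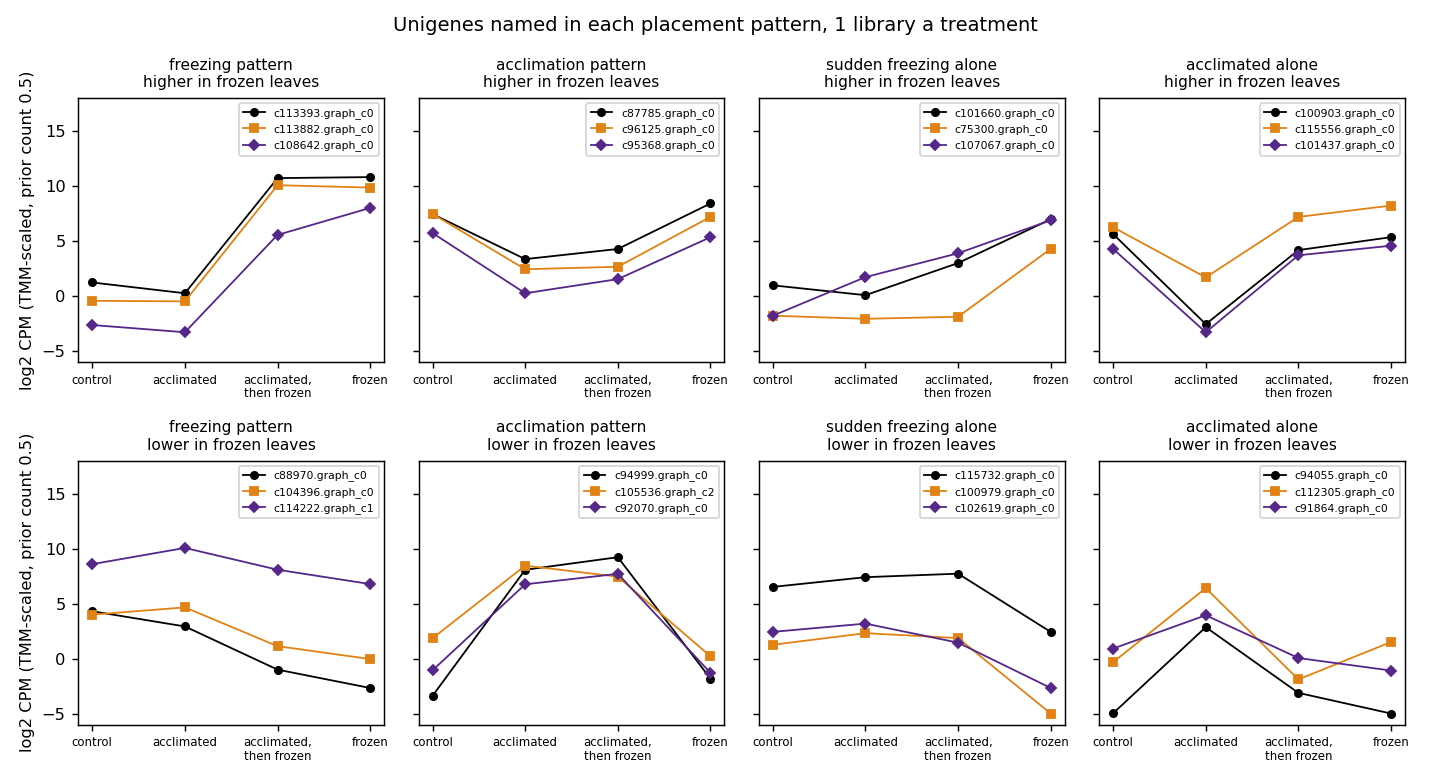
Each panel plots 3 unigenes of a placement pattern, with treatments on the horizontal axis and log2 CPM (TMM-scaled, prior count 0.5) on the vertical axis; lines only join values of the same unigene. In the freezing pattern the last pair of treatments stands apart from the first pair, and in the acclimation pattern the middle pair stands apart from the outer pair.

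The ratio of the other libraries, acclimated and frozen to control, shares no library with the ratio of frozen to acclimated. Across the 48004 unigenes the log2 ratios were weakly related (Pearson r -0.08, Spearman rho -0.21), and across the 23772 with at least 100 counts -0.11 and -0.39. Unigenes are not independent replicates, and these values describe the libraries only. Called higher in that second ratio were 5531 unigenes (11.5%) and lower 4125 (8.59%). The relation was weak by Pearson r and more clearly inverse by rank, and it held opposed groups. Of the 3421 higher unigenes, 1076 (31.5%) were also called higher in the second ratio, 19.5% of its higher calls, and 802 (23.4%) were called lower, 19.4% of its lower calls. Of the 2835 lower unigenes, 1406 (49.6%) were called higher there, 25.4% of its higher calls, and 59 (2.08%) were called lower, 1.43% of its lower calls. The 1076 had medians of 0.849, 1.17, 14.2 and 13.7 FPKM from control to freezing alone, and the 1406 had 6.12, 30.9, 26.3 and 8.25 FPKM. The 59 had medians of 14.5 FPKM in the control, 11.1 FPKM in chilled leaves, 1.74 FPKM in chilled and then frozen leaves and 3.39 FPKM in suddenly frozen leaves. These groups were chosen by both ratios, so their medians only describe how high each stood.

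**Figure D5:**
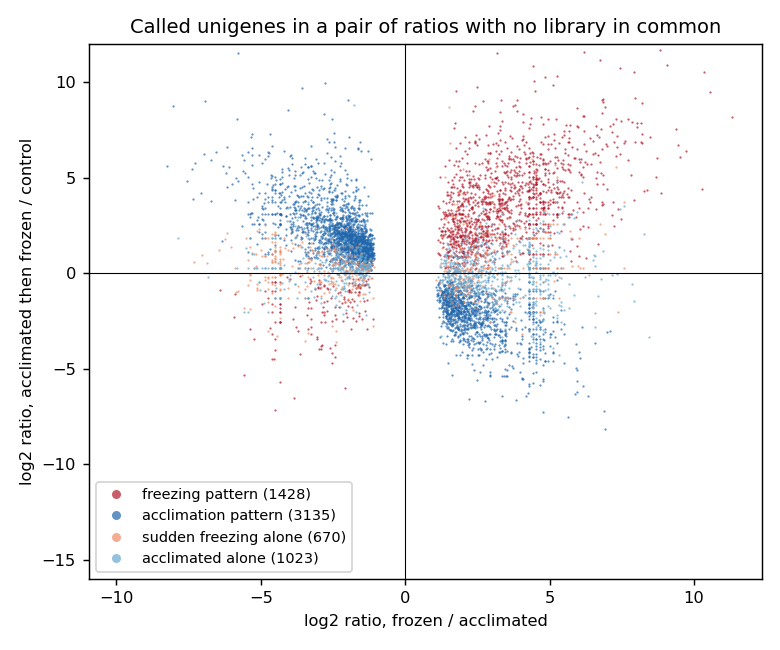
Each point is a called unigene, with its log2 ratio of frozen to acclimated (horizontal axis) and of acclimated then frozen to control (vertical axis), coloured by placement pattern. Calls on the right split into a cloud above and a cloud below 0, and calls on the left lie mostly above 0; vertical rows of points are unigenes with 0 counts in a library.

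How many of these calls replicates would uphold is not known. A test was open only through a model over the 4 libraries with additive terms for acclimation and for freezing, which leaves 1 residual degree of freedom and takes any interaction as spread. In that model the contrast of freezing and acclimation rests on the same pair of libraries. At an adjusted p of 0.05 (edgeR, quasi-likelihood, Benjamini-Hochberg) it called 1362 unigenes higher (2.84%) and 1422 lower (2.96%), all of them among the calls above. By its construction it disfavours unigenes for which a single library stands apart. With the spread it fitted (30.1%) added to the counting error, 1300 unigenes were higher (2.71%) and 840 lower (1.75%) beyond 2-fold, and the freezing pattern then held 50.8% of the higher and the acclimation pattern 71.3% of the lower.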

How the data were processed

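RNA-seq of total leaf RNA gave 4 libraries, 1 per treatment. Samples were grouped by their treatment label, and columns were tied to samples by the title in the column name. The authors deposited raw counts per unigene and FPKM values, per the file headers. Bowtie 0.12.2, Cufflinks and a mouse build, mm8, are listed per the submitters' processing notes. The assembler, counting rule and use of strand are not given in the sources used here, and near-identical unigenes may share reads. The members and rules were chosen with earlier results of these data known.

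TMM factors (edgeR 4.0.16, R 4.3.3) were 0.976 for the acclimated and 1.11 for the frozen library. Ratios of scaled counts were given exact (Clopper-Pearson) 95% intervals (scipy 1.17.1), which cover counting error only. Log2 ratios used a prior count of 0.5. A count of 0 allows 3 counts, or 0.202 CPM in the acclimated and 0.188 CPM in the frozen library. Lengths were implied by count and FPKM (201 to 14975 bases), which fitted all 4 libraries to a relative difference of 1.79e-08. No test used the compared libraries alone; an additive model over all 4 was run as an alternative. The rules and the additive model were checked on simulated data. Unigenes were named by rule: in each direction the 8 with the interval bound farthest from equal levels, the 5 such at 100 FPKM or more, the 3 with the most counts against 0, the 3 leading each placement pattern whose counts resolve the placement (Poisson 95% intervals on 1 side of the midpoint), and, without direction, the 5 most abundant with the log2 interval within 0.32 of 0 and the 5 most abundant of each library. Alternatives covered scaling (also the median-of-ratios rule, DESeq2 1.42.0), filters, call rules and prior count.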

Additional observations from a re-analysis of the deposited data

How the results depend on the processing

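No paired analysis was possible because each treatment has 1 library, and for the same reason no replicate could be left out. By total counts 66.8% of calls were higher, the median log2 ratio was 0.29, the freezing pattern held 33.3% and the acclimation pattern 38.7% of higher calls, the acclimation pattern held 67.3% of lower calls, and the called sets held 19.9% (higher, frozen library) and 20.2% (lower, acclimated library) of counts. With median-of-ratios factors 51.5% were higher, the median was 0.0479, and the acclimation pattern held 32.0% of higher and 71.3% of lower calls. With TMM over the compared libraries alone 52.4% were higher and the median was 0.0618; placement could not be had. Without a filter the median was 0.20 and the Pearson correlation with the other ratio -0.0527. With 100 or more counts 2267 unigenes were higher (50.6% of calls), the median was 0.00843 and the acclimation pattern held 38.2% and 77.1%. The Pearson correlation was then -0.11 and Spearman rho -0.39.

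Where the interval had only to exclude equal levels, 12214 unigenes were higher and 10793 lower (53.1% higher), with 22.7% of higher calls in the freezing pattern, 46.6% in the acclimation pattern and 53.5% of lower calls in the latter. Beyond 4-fold these were 1024 and 680 (60.1%), 55.3%, 19.9% and 73.5%, and the sets held 7.07% and 9.84% of counts. A log2(FPKM + 1) difference of 1 gave 6747 higher (67.2%), 28.0%, 41.0% and 64.2%. With the added spread there were 1300 and 840 (60.7%), with 50.8%, 22.4% and 71.3%. The additive model turned the balance, with 1362 and 1422 (48.9% higher). A prior count of 2 gave a median of 0.0867 and a Pearson correlation of -0.11, and zeros at the limit a median of 0.0851. Counting only unigenes whose placement the counts resolve, which was chosen after seeing the data, gave 42.7%, 36.3% and 81.7%. The cause of these shifts was not tested. No named and called unigene changed sign under another scaling, but of 39 such unigenes c106657.graph_c1 was no longer called by total counts (log2 ratio -0.92); of the log2 ratios of named unigenes under the 3 other scalings, 110 stayed within the counting interval and 31 left it. Depth limits the scarce class most.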

Other observations

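Sub-graphs of an assembly component can be similar sequences. Of 2304 components with at least 2 unigenes compared, 164 had at least 2 called. In 146 of these all called members went the same way, and in 18 they were called in both directions.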
